A study of Mus musculus with 12 samples.

Results

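The translation initiation factor genes are the genes whose name on the array starts with Eif and a digit, with the eIF2 kinases (Eif2ak) left out. The rule took 111 probes for 47 genes, of 41174 probes on the array, with the brightest probe standing for each gene. Of the 47 genes 46 could be tested, among 17157 genes in all. The remaining gene, the Y-linked Eif2s3y, was well above background on none of the 12 arrays and is not tested. The array uses old names: Eif3s1 to Eif3s12 are given here as Eif3j1, Eif3i and so on, Eif1ay as Eif1ax, and Eif2c1 to Eif2c4 as Ago1 to Ago4. The rule thus takes in the 4 Argonautes, which carry small RNAs in gene silencing and are not initiation factors. They are counted with the members and also described apart.

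The arrays measured splenic B cells of C57BL/6 mice in 4 groups of 3 arrays each. These are LPS-stimulated Ebf1 fl/fl RERTCre cells, LPS-stimulated Ebf1 +/fl RERTCre cells, resting fl/fl cells and resting +/fl cells. Ebf1 is a transcription factor that establishes and maintains the B lineage, fl marks an allele that Cre recombinase can delete, and RERTCre is a Cre fused to an oestrogen receptor domain that tamoxifen switches on. All mice, the heterozygous controls included, received 3 mg of tamoxifen citrate on 4 days and were analysed on day 10. The +/fl cells therefore carry Cre, saw the drug and can lose 1 copy of Ebf1. Cells were sorted as B220+ AA4.1- or as B220+ AA4.1- CD21lo, and the labels do not say which gate gave which array. LPS, bacterial lipopolysaccharide, drives resting B cells into growth and division. Its dose and time, and the age and sex of the mice, are not given in the sources used here. Nothing says whether replicates came from separate mice, so the p-values measure the spread between these arrays.

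Translation initiation starts when eIF2 carries the initiator tRNA to the small ribosomal subunit, helped by eIF1, eIF1A and eIF3. The cap-binding complex eIF4F, made of the cap-binding protein eIF4E, the scaffold eIF4G and the helicase eIF4A, brings the mRNA, and eIF5 and eIF5B complete the joining of the large subunit. Control falls mostly at eIF2, which the exchange factor eIF2B reloads with GTP, and at eIF4E, which the 4E-binding proteins hold back until mTOR releases them. In B cells, growth after activation comes with a large increase in protein synthesis.

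Values are log2 of background-subtracted Cy3 signal minus the 75th percentile of the same array, so 0 is the signal of a spot at that percentile. They are relative to each array, so they do not measure RNA per cell, and a smaller share of cells that express a gene cannot be told apart from less of its RNA per cell. Differences are log2, with a standard error (SE) from limma fitted over all 12 arrays. Adjusted p is the Benjamini-Hochberg value over the 17157 genes, with a threshold of 0.05.

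The arrays were checked before the results. All 8 B cell markers were well above background on every array, but so were 8 T cell and 6 NK cell markers. Standing above background therefore does not by itself show which cells were measured. The summed signal of 12 monocyte, macrophage and neutrophil genes, in units of the 75th percentile of each array, was 89.6 to 153 in LPS fl/fl, 55 to 142 in LPS +/fl, 86.5 to 136 in resting fl/fl and 105 to 295 in resting +/fl cells, with resting +/fl arrays 1 and 3 high. Ly6c1, the brightest of the 12 on most arrays at log2 5.435 to 7.391, weighs most in these sums. The median log2 levels of the 12 genes were -1.12 to -0.71, -1.81 to -0.91, -1.65 to -1.14 and -1.14 to 1.445 in the same order. For 6 NK cell genes the sums were 4.53 to 8.39, 2.47 to 3.18, 24.2 to 30.2 and 22.7 to 51.1 in the same order, so they were lower after LPS in both genotypes. LPS fl/fl array 2 stood apart, since 83.2% of its spots were well above background and the remaining arrays had 54.4% to 61.4%. Ebf1 itself was split: its brighter probe read 1.70 to 1.85 in resting fl/fl and 0.78 to 1.42 in resting +/fl cells (log2 difference 0.62, SE 0.15, limma adjusted p over all probes 0.0385), and its dimmer probe -4.99 to -4.18 and -3.13 to -2.15 (-1.90, SE 0.48, adjusted p 0.0433). After LPS the brighter probe differed by 0.12 (SE 0.15, limma adjusted p over all probes 0.675) and the dimmer by -0.92 (SE 0.48, adjusted p 0.315). Neither passed the threshold there. The labels do not say which part of Ebf1 is deleted, so these probes do not check the genotype labels by themselves.

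The brightest probes of 7 members are 60 bases long but cover more than that on the genome, so they span an exon junction, and each has a reading frame with no stop codon. From them 4 are shown, 2 of genes that rose after LPS and 2 of genes that fell, as the letters the signal was read from. Eif4g1 (chr16:20239326-20242299, plus strand) and Eif3i (chr4:129040029-129041548, minus strand) rose after LPS, and Eif3f (chr7:104855194-104855615, plus strand) and Eif4e3 (chr6:99715072-99720334, minus strand) fell, with positions on mouse build mm7 as the array files give them.
Eif4g1: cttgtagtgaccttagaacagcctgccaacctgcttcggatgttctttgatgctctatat
Eif3i: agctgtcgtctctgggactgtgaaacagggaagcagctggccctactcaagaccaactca
Eif3f: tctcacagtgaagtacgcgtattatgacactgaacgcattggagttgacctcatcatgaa
Eif4e3: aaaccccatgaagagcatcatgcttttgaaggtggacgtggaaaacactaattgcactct

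After LPS most of the initiation factor genes were higher in both genotypes. In fl/fl cells 28 of the 46 genes rose (60.9%), against 30.2% of all genes, and 5 fell (10.9%), against 25.3% of all genes. In +/fl cells 31 rose (67.4%), against 30.7% of all genes, and 3 fell (6.52%), against 27% of all genes. The median log2 change of the 46 genes was 0.92 in fl/fl and 1.02 in +/fl cells, and over all genes it was 0.08 and -0.02. Without the 4 Argonautes the medians were 0.99 and 1.15. The genotypes share no arrays in these comparisons, and 27 genes rose in both, which is 96.4% of those that rose in fl/fl and 87.1% of those in +/fl cells. Over all genes the shares were 82.1% and 80.8%. Ago4, Eif3f and Eif4e3 fell in both, 9 genes passed in neither, and none rose in one and fell in the other. By limma's test at the brightest probes, Eif3k rose and Ago2 and Eif4ebp3 fell in fl/fl cells alone. Eif1, Eif2b2, Eif4enif1 and Eif4g3 rose in +/fl cells alone, though another probe of Eif4enif1 and of Eif4g3 rose in fl/fl cells too. For none of these 7 did the difference between the responses itself pass the threshold, as the interaction test at the end shows.

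**Figure D1:**
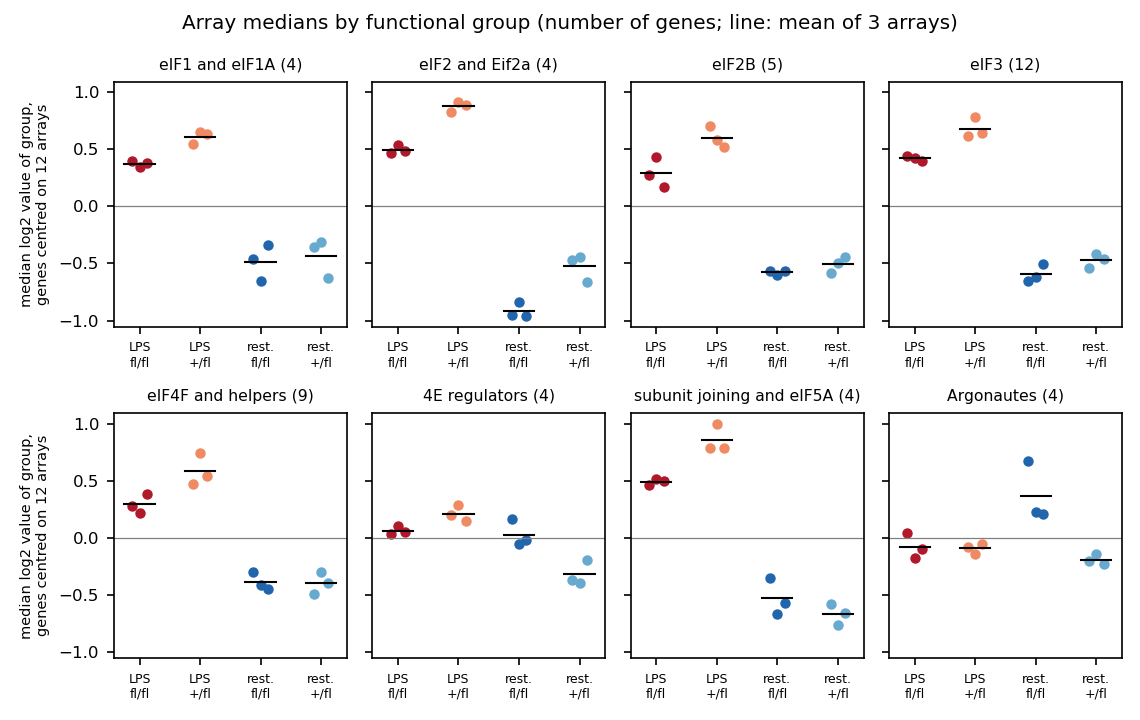
Median over the genes of each functional group on each array, as log2 values with every gene centred on its mean over the 12 arrays, for LPS fl/fl, LPS +/fl, resting fl/fl and resting +/fl cells; points are arrays and lines the mean of 3 arrays. In 6 groups every LPS array lies above every resting array, while the 4E regulators and the Argonautes do not separate in this way.

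Within each slide that held both conditions the pattern was the same. In fl/fl cells the median of the 46 genes was 0.85 on slide 2 and 0.89 on slide 3, and in +/fl cells 1.06 on slide 1 and 1.09 on slide 2. All 33 genes that passed in fl/fl cells and all 34 in +/fl cells had the same sign on both slides. Leaving out LPS fl/fl array 2 left 29 genes higher and 4 lower in fl/fl cells. Marker genes moved with LPS as well: 6 of 6 NK genes and 4 of 5 platelet genes fell in each genotype, and 5 of 8 B cell genes fell in fl/fl and 6 of 8 in +/fl cells. Of the 12 myeloid genes 3 rose and 2 fell in fl/fl cells, and 7 fell in +/fl cells. Their part in the changes of the initiation factor genes was not tested.

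**Figure D2:**
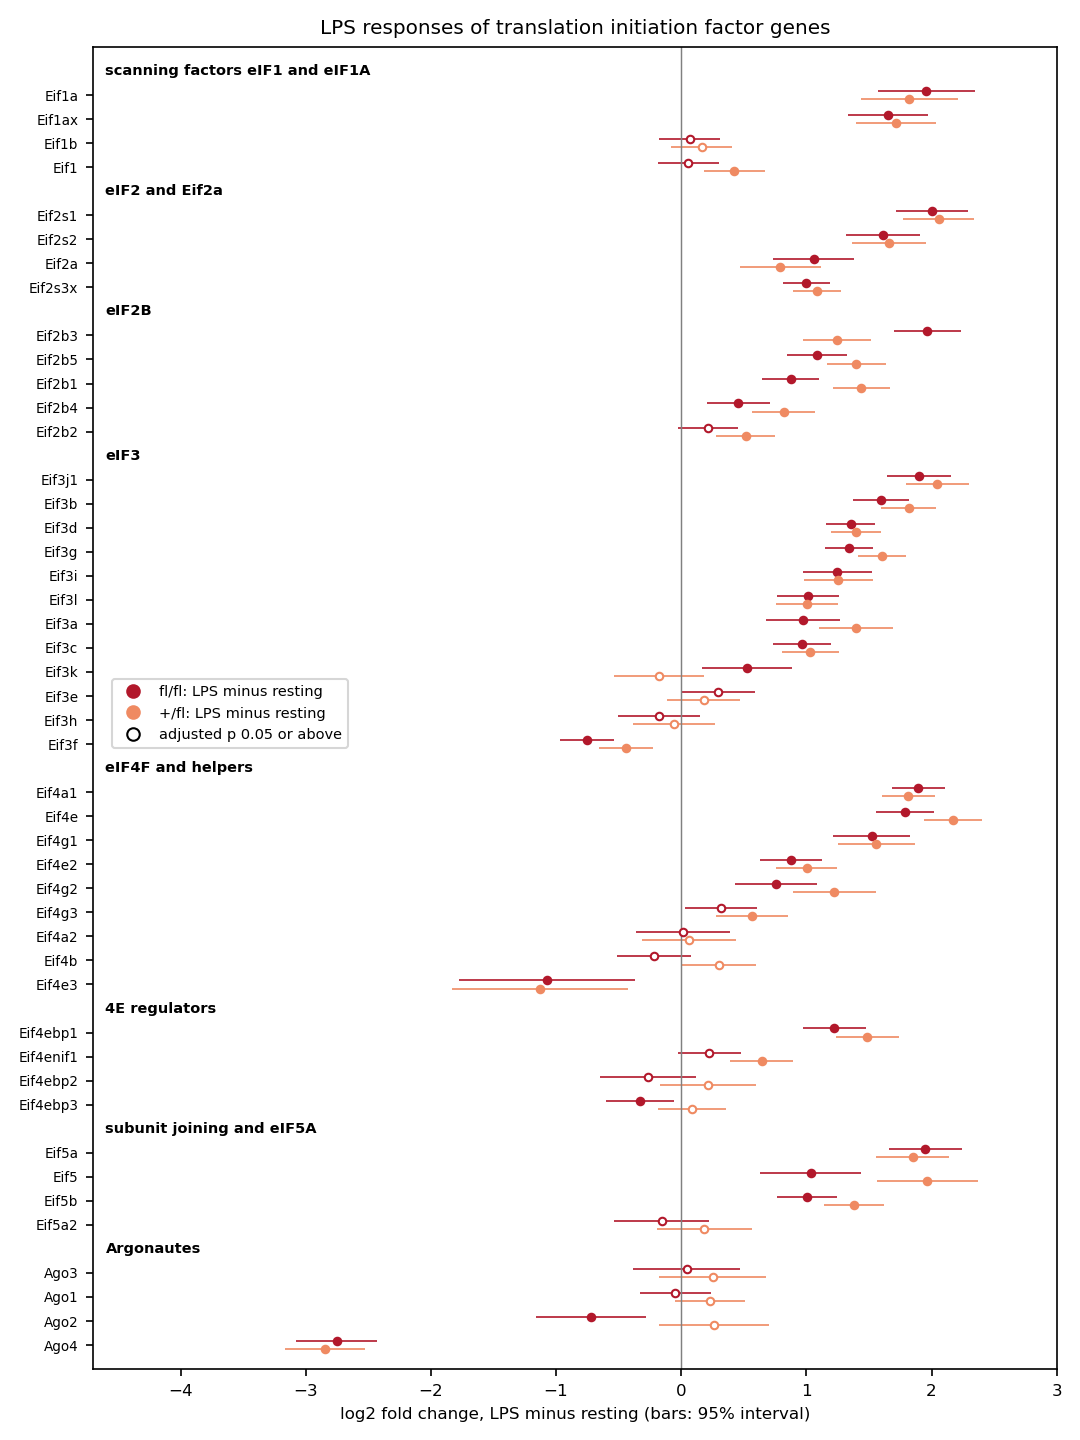
Log2 fold change after LPS (LPS minus resting) of each of the 46 genes in fl/fl and +/fl cells with 95% intervals, grouped by function; filled points passed the adjusted p threshold of 0.05. Eif2s1 and Eif4e reached 2.0 and 2.17 at the top, and Ago4 lies at -2.75 and -2.85.

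The eIF2 subunit genes and Eif2a all rose in both genotypes, by 1.0 to 2.0 in fl/fl and 0.79 to 2.06 in +/fl cells. Eif2s1, which encodes the alpha subunit that stress kinases phosphorylate, had 4.58, 4.63 and 4.50 in LPS fl/fl and 4.74, 4.92 and 4.92 in LPS +/fl cells, against 2.57, 2.54 and 2.59 in resting fl/fl and 3.09, 2.61 and 2.71 in resting +/fl cells. The 6 LPS arrays lay above the 6 resting arrays with no overlap, a change of 2.0 (SE 0.13, adjusted p 8.17e-07) in fl/fl and 2.06 (SE 0.13, adjusted p 6.25e-07) in +/fl cells. Eif2s2, the beta subunit, rose by 1.61 and 1.66, and Eif2s3x encodes the X-linked gamma subunit that binds the tRNA. It spanned 4.44 to 4.60 in LPS fl/fl and 4.70 to 4.8 in LPS +/fl cells, against 3.49 to 3.59 in resting fl/fl and 3.65 to 3.69 in resting +/fl cells, and rose by 1.0 and 1.08. Its Y-linked copy Eif2s3y read -8.13 to -6.98 and was above background on no array. Eif2a, a separate protein that can deliver initiator tRNA and is not a subunit of eIF2, rose by 1.06 and 0.79.

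The eIF2B genes, whose 5 products form the exchange factor for eIF2, were higher at 4 of 5 in fl/fl and at 5 of 5 in +/fl cells. Eif2b1, the alpha subunit, had 3.36, 3.52 and 3.26 in LPS fl/fl and 4.0, 4.01 and 3.85 in LPS +/fl cells, against 2.52, 2.46 and 2.52 in resting fl/fl and 2.43, 2.47 and 2.64 in resting +/fl cells. The LPS arrays were higher without overlap, by 0.87 (SE 0.10, adjusted p 4.73e-05) and 1.44 (SE 0.10, adjusted p 1.44e-06). Eif2b5, the catalytic epsilon subunit, spanned 2.76 to 2.97 in LPS fl/fl and 3.21 to 3.45 in LPS +/fl cells, against 1.67 to 1.89 in resting fl/fl and 1.91 to 2.0 in resting +/fl cells, and rose by 1.09 and 1.40. Eif2b4, the delta subunit, spanned 3.81 to 4.13 in LPS fl/fl and 4.18 to 4.34 in LPS +/fl cells, against 3.38 to 3.59 in resting fl/fl and 3.35 to 3.53 in resting +/fl cells, and rose by 0.46 and 0.82. Eif2b2, the beta subunit, spanned 4.47 to 4.63 in LPS fl/fl and 4.67 to 4.89 in LPS +/fl cells, against 4.17 to 4.45 in resting fl/fl and 4.27 to 4.33 in resting +/fl cells. It rose by 0.51 in +/fl cells and changed by 0.21 (adjusted p 0.113) in fl/fl cells. The dim Eif2b3 had -3.22, -3.41 and -3.29 in LPS fl/fl and -3.61, -3.73 and -3.79 in LPS +/fl cells, against -5.17, -5.19 and -5.46 in resting fl/fl and -5.11, -4.95 and -4.8 in resting +/fl cells. All LPS arrays were above all resting arrays, but only 1 of 3 resting fl/fl and 2 of 3 resting +/fl arrays were well above background, so its differences, 1.96 and 1.24, are less certain. With normexp background correction, a model of spot signal over local background, the fl/fl difference turned to -0.53, and with bright local backgrounds repaired it was 0.15 (adjusted p 0.336). The +/fl difference was 0.02 and 0.09 in the same 2 settings (adjusted p 0.994 and 0.568), so without Eif2b3 the eIF2B genes that rose are 3 of 4 in fl/fl and 4 of 4 in +/fl cells.

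Of the 12 eIF3 genes, whose products form the scaffold on the small ribosomal subunit, 9 rose and 1 fell in fl/fl cells, and 8 rose and 1 fell in +/fl cells. Eif3j1, a loosely attached subunit, had 5.0, 5.03 and 4.97 in LPS fl/fl and 5.22, 5.45 and 5.44 in LPS +/fl cells, against 2.89, 3.21 and 3.20 in resting fl/fl and 3.39, 3.34 and 3.24 in resting +/fl cells. LPS and resting arrays did not overlap, and the change was 1.90 (SE 0.11, adjusted p 5.67e-07) in fl/fl and 2.05 (SE 0.11, adjusted p 3.32e-07) in +/fl cells. A near-identical gene copy exists in the mouse, so this signal may be that of both copies. Eif3b, a core subunit, rose by 1.60 and 1.82, Eif3g by 1.34 and 1.61, Eif3d, which can bind the cap, by 1.35 and 1.40, and Eif3a, the largest subunit, by 0.97 and 1.40. Eif3c, Eif3i and Eif3l rose by 0.97 to 1.26.

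Eif3f went the other way. This subunit of the eIF3 complex had 4.83, 4.73 and 4.77 in LPS fl/fl and 5.14, 5.21 and 5.09 in LPS +/fl cells, against 5.64, 5.41 and 5.54 in resting fl/fl and 5.63, 5.66 and 5.48 in resting +/fl cells. Every LPS array was below every resting array, with log2 changes of -0.75 (SE 0.10, adjusted p 8.9e-05) in fl/fl and -0.44 (SE 0.10, adjusted p 0.0027) in +/fl cells. Eif3h, its partner in the complex, changed by -0.18 (95% interval -0.50 to 0.15) and -0.06 (-0.39 to 0.27), and Eif3e by 0.30 (0.004 to 0.59) and 0.18 (-0.12 to 0.47), none past the threshold at the brightest probe. The other Eif3e probe rose by 0.80 in fl/fl cells (adjusted p over all probes 0.0127) and changed by 0.48 in +/fl cells (0.0965). Eif3k rose by 0.53 (SE 0.16, adjusted p 0.018) in fl/fl cells and changed by -0.18 in +/fl cells (adjusted p 0.366), and the fl/fl rise missed the threshold without resting fl/fl array 1 (0.41, adjusted p 0.0683).

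The cap-binding complex rose at its main genes. Eif4e, the cap-binding protein, had 3.5, 3.62 and 3.58 in LPS fl/fl and 3.77, 4.10 and 3.95 in LPS +/fl cells, against 1.72, 1.85 and 1.76 in resting fl/fl and 1.78, 1.68 and 1.84 in resting +/fl cells. The LPS arrays stood clear of the resting arrays, by 1.79 (SE 0.10, adjusted p 4.77e-07) in fl/fl and 2.17 (SE 0.10, adjusted p 1.56e-07) in +/fl cells, the largest rise of the 46 genes in +/fl cells. Eif4a1, the helicase, had 6.72, 6.76 and 6.67 in LPS fl/fl and 6.84, 6.94 and 6.72 in LPS +/fl cells, against 4.84, 4.76 and 4.87 in resting fl/fl and 4.99, 5.13 and 4.94 in resting +/fl cells. It was higher on all LPS arrays, by 1.90 (SE 0.09, adjusted p 2.16e-07) and 1.81 (SE 0.09, adjusted p 2.35e-07). Eif4g1, the scaffold, had 4.73, 4.64 and 4.65 in LPS fl/fl and 4.90, 5.12 and 4.68 in LPS +/fl cells, against 3.1, 3.31 and 3.04 in resting fl/fl and 3.13, 3.43 and 3.45 in resting +/fl cells, with no overlap between LPS and resting arrays and a change of 1.52 (SE 0.14, adjusted p 8.57e-06) and 1.56 (SE 0.14, adjusted p 6.47e-06). Eif4g2, a scaffold that lacks the eIF4E site, spanned 4.62 to 4.88 in LPS fl/fl and 4.87 to 5.17 in LPS +/fl cells, against 3.81 to 4.09 in resting fl/fl and 3.63 to 4.09 in resting +/fl cells, and rose by 0.76 and 1.22. Eif4e2, a relative of eIF4E linked to repression, rose by 0.88 and 1.0. Eif4g3, another scaffold, rose by 0.57 in +/fl cells and changed by 0.32 (adjusted p 0.0575) in fl/fl cells. The other Eif4g3 probe rose by 0.48 in fl/fl and 0.60 in +/fl cells (adjusted p over all probes 0.00494 and 0.00114). Eif4b, a helper of the helicase, changed by -0.21 and 0.30 at its brightest probe and passed in neither, but its dimmer probes rose by 0.51 and 0.63 in fl/fl cells (adjusted p over all probes 0.0289 and 0.0344). In +/fl cells they changed by 0.62 and 0.26 (0.0107 and 0.348).

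Eif4a2, the close relative of Eif4a1, did not pass at its brightest probe. It had 5.58, 5.58 and 5.75 in LPS fl/fl and 5.36, 5.54 and 5.59 in LPS +/fl cells, against 5.69, 5.56 and 5.63 in resting fl/fl and 5.29, 5.86 and 5.16 in resting +/fl cells. The groups overlapped, and the changes were 0.02 (95% interval -0.36 to 0.39) and 0.06 (-0.31 to 0.44). Its other, dimmer probe rose by 0.71 in fl/fl cells (adjusted p over all probes 0.0324) and changed by -0.01 in +/fl cells (0.981). By the brightest probes, Eif4a1 minus Eif4a2 was higher after LPS by 1.88 in fl/fl and 1.75 in +/fl cells, a description without a test because the pair was chosen with the values known. Eif4e3, a relative of eIF4E, had -1.43, -0.90 and -0.97 in LPS fl/fl and -0.94, -0.97 and -1.30 in LPS +/fl cells, against 0.36, -0.22 and -0.22 in resting fl/fl and 0.72, 0.06 and -0.63 in resting +/fl cells. All LPS arrays were lower, with a wide spread among resting arrays and log2 changes of -1.07 (SE 0.31, adjusted p 0.0149) and -1.13 (SE 0.31, adjusted p 0.0112). Without resting fl/fl array 1 the fl/fl change was -0.88 with an adjusted p of 0.0586, and without LPS fl/fl array 1 it was -0.91 with 0.056.

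The 4E regulators split. Eif4ebp1, the 4E-binding protein that mTOR releases from eIF4E, had 3.33, 3.47 and 3.24 in LPS fl/fl and 3.90, 3.70 and 3.62 in LPS +/fl cells, against 2.27, 2.03 and 2.07 in resting fl/fl and 2.22, 2.34 and 2.20 in resting +/fl cells. LPS arrays were higher without overlap, by 1.22 (SE 0.11, adjusted p 9.27e-06) and 1.49 (SE 0.11, adjusted p 2.24e-06). Eif4ebp2 had 1.69, 1.67 and 1.5 in LPS fl/fl and 1.91, 1.84 and 1.45 in LPS +/fl cells, against 2.12, 1.80 and 1.73 in resting fl/fl and 1.78, 1.29 and 1.5 in resting +/fl cells. Its values overlapped in +/fl cells but not in fl/fl cells, where the LPS arrays were lower, and neither change passed (-0.26, adjusted p 0.22, and 0.21, adjusted p 0.318).
The remaining family gene, Eif4ebp3, had 2.48, 2.18 and 2.44 in LPS fl/fl and 2.34, 2.51 and 2.45 in LPS +/fl cells, against 2.75, 2.66 and 2.67 in resting fl/fl and 2.17, 2.54 and 2.33 in resting +/fl cells. In fl/fl cells the LPS arrays lay below the resting ones, a log2 change of -0.33 (SE 0.12, adjusted p 0.0422), and in +/fl cells they overlapped. That fall was kept in only 7 of 24 alternatives. It missed the threshold without LPS fl/fl array 2 (-0.23, adjusted p 0.146), among other settings, and with normexp it turned to 0.04. The other Eif4ebp3 probe changed by -0.18 in fl/fl and 0.02 in +/fl cells (adjusted p over all probes 0.284 and 0.906). Eif4ebp1 minus Eif4ebp2 was higher after LPS by 1.49 and 1.27 and Eif4ebp1 minus Eif4ebp3 by 1.55 and 1.40, again as a description. Eif4enif1, which carries eIF4E into the nucleus, rose by 0.64 in +/fl cells and changed by 0.22 in fl/fl cells (adjusted p 0.12). Of its dimmer probes in fl/fl cells 1 rose by 1.17 and another changed by -0.38 (adjusted p over all probes 0.00193 and 0.0668).

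**Figure D3:**
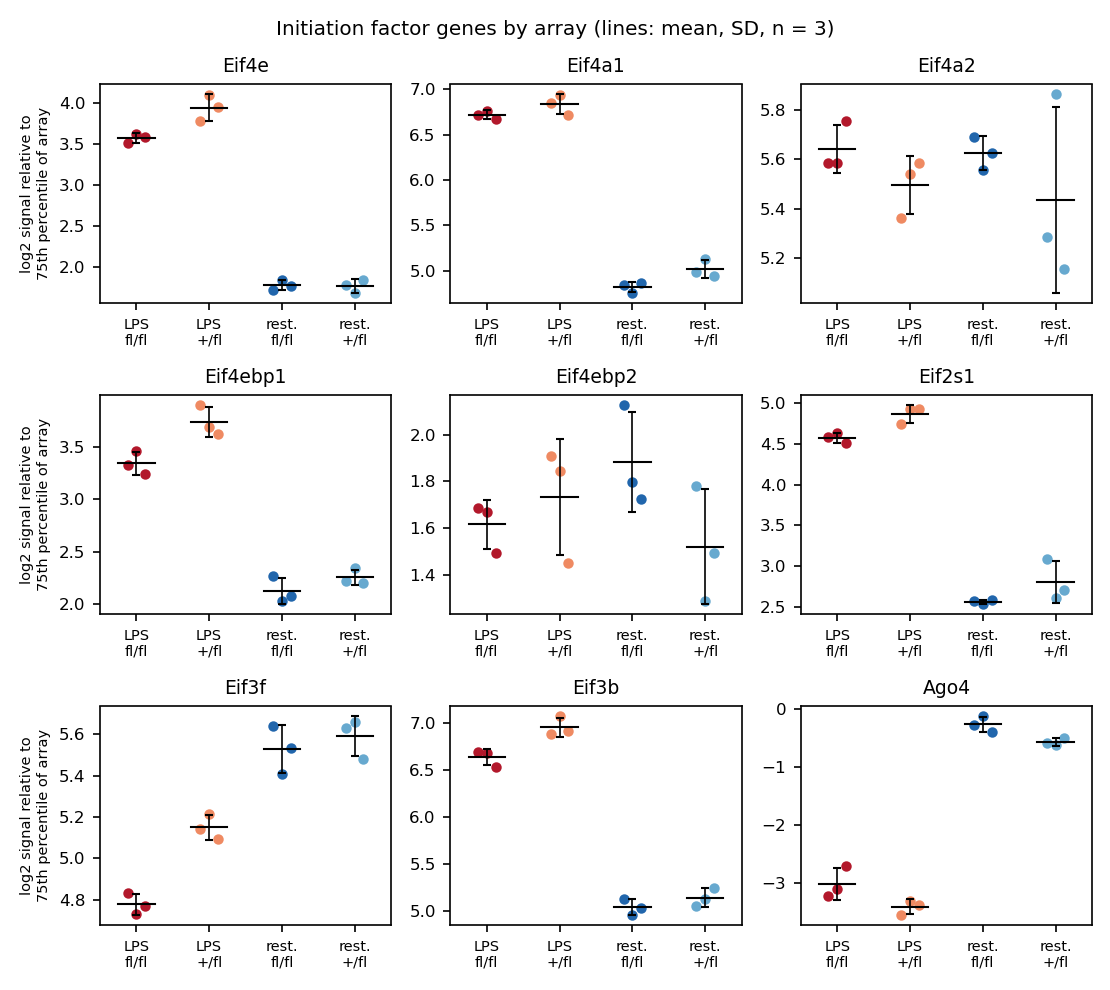
Log2 signal of 9 genes on each of the 12 arrays, relative to the 75th percentile of the array, with mean and SD of 3 arrays per group. Eif4e, Eif4a1, Eif4ebp1, Eif2s1 and Eif3b are higher on every LPS array, Eif3f and Ago4 are lower on every LPS array, and Eif4a2 stays between 5.16 and 5.86; each panel has its own scale.

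Among the scanning factors, Eif1a and Eif1ax, which encode forms of eIF1A, rose in both genotypes. Eif1a had 3.19, 3.29 and 3.32 in LPS fl/fl and 3.34, 3.45 and 3.52 in LPS +/fl cells, against 1.02, 1.24 and 1.67 in resting fl/fl and 1.68, 1.82 and 1.33 in resting +/fl cells. LPS and resting arrays were apart, by 1.96 (SE 0.17, adjusted p 7.23e-06) and 1.82 (SE 0.17, adjusted p 1.06e-05). Eif1ax, on the X chromosome, rose by 1.65 and 1.72. Eif1, which guards start codon choice, changed by 0.06 in fl/fl cells (95% interval -0.19 to 0.30) and rose by 0.42 in +/fl cells. Eif1b passed in neither (0.07 and 0.16).

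Of the late factors, Eif5, the GTPase activator of eIF2, had 4.89, 5.09 and 4.95 in LPS fl/fl and 5.54, 5.65 and 5.33 in LPS +/fl cells, against 4.24, 3.77 and 3.82 in resting fl/fl and 3.90, 3.28 and 3.44 in resting +/fl cells. All LPS arrays exceeded all resting arrays, by 1.03 (SE 0.18, adjusted p 0.000764) in fl/fl and 1.97 (SE 0.18, adjusted p 8.42e-06) in +/fl cells. Eif5a, which carries hypusine and helps ribosomes past difficult peptides, had 6.85, 6.68 and 6.66 in LPS fl/fl and 6.95, 7.10 and 6.92 in LPS +/fl cells, against 4.58, 4.90 and 4.86 in resting fl/fl and 4.94, 5.15 and 5.33 in resting +/fl cells. Its LPS arrays were clearly higher, by 1.95 (SE 0.13, adjusted p 1.16e-06) and 1.85 (SE 0.13, adjusted p 1.44e-06). Eif5b, the GTPase of subunit joining, rose by 1.0 and 1.38. Eif5a2, the relative of Eif5a, changed by -0.15 (95% interval -0.53 to 0.22) and 0.18 (-0.19 to 0.56). Its other probe changed by 0.17 in fl/fl cells and rose by 0.49 in +/fl cells (adjusted p over all probes 0.482 and 0.043). By the brightest probes Eif5a minus Eif5a2 was higher after LPS by 2.10 and 1.66, a description too.

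The Argonautes did not follow the initiation factors. Ago4 had -3.24, -3.11 and -2.71 in LPS fl/fl and -3.56, -3.31 and -3.39 in LPS +/fl cells, against -0.27, -0.13 and -0.39 in resting fl/fl and -0.59, -0.63 and -0.50 in resting +/fl cells. Every LPS array was far below every resting array, with log2 changes of -2.75 (SE 0.14, adjusted p 2.82e-07) in fl/fl and -2.85 (SE 0.14, adjusted p 2.09e-07) in +/fl cells, the largest change of the 46 genes. Ago2, the slicing Argonaute, had 2.01, 2.02 and 1.88 in LPS fl/fl and 2.13, 2.16 and 2.07 in LPS +/fl cells, against 3.22, 2.47 and 2.40 in resting fl/fl and 2.06, 1.75 and 1.76 in resting +/fl cells. In fl/fl cells the LPS arrays were lower, a log2 change of -0.72 (SE 0.20, adjusted p 0.0101), with resting fl/fl array 1 well above the other resting arrays (without it the change was -0.46, adjusted p 0.0107), and in +/fl cells they were higher by 0.26, which did not pass (adjusted p 0.283). Ago1 and Ago3 passed in neither genotype, with changes of -0.05 to 0.25.

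Probes of one gene could be compared for 34 genes, and the sign of the LPS change was the same at all probes of 28 of them in fl/fl and of 29 in +/fl cells. At the 3 Eif4e probes the fl/fl changes were 1.79, 2.40 and 1.58, and at the 3 Eif4a1 probes 1.90, 2.67 and 2.36. The signs differed for Ago1, Ago3, Eif4b, Eif4enif1, Eif5 and Eif5a2 in fl/fl cells and for Ago1, Ago2, Eif4a2, Eif4enif1 and Eif5 in +/fl cells. Probes were called in opposite directions, brightest against another, for Eif5 in fl/fl and Eif4enif1 in +/fl cells. At Eif5 in fl/fl cells 2 probes to its RefSeq transcript rose by 1.03 and 0.98, and another, dimmer probe to a different transcript fell by 0.67 (limma adjusted p over all probes 0.0104). At Eif4enif1 in +/fl cells 2 probes rose by 0.64 and 0.92 and the other fell (-0.48, adjusted p 0.0255). At Ago1 in fl/fl cells 1 dimmer probe rose by 0.99 (adjusted p 0.0239), another fell (-0.84, adjusted p 0.0413) and the brightest changed by -0.05, and at Ago3 a dimmer probe rose by 0.84 (adjusted p 0.0415). At Ago4 3 of 5 probes fell by 2.75 to 3.29 in fl/fl cells, 1 changed by -0.04 (adjusted p 0.906) and the dimmest by -1.38 (0.28). At Ago2 the 2 brighter probes changed by -0.72 and -0.49 in fl/fl and by 0.26 and 0.17 in +/fl cells, and the dimmest fell in both (-1.42 and -1.66).

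**Figure D4:**
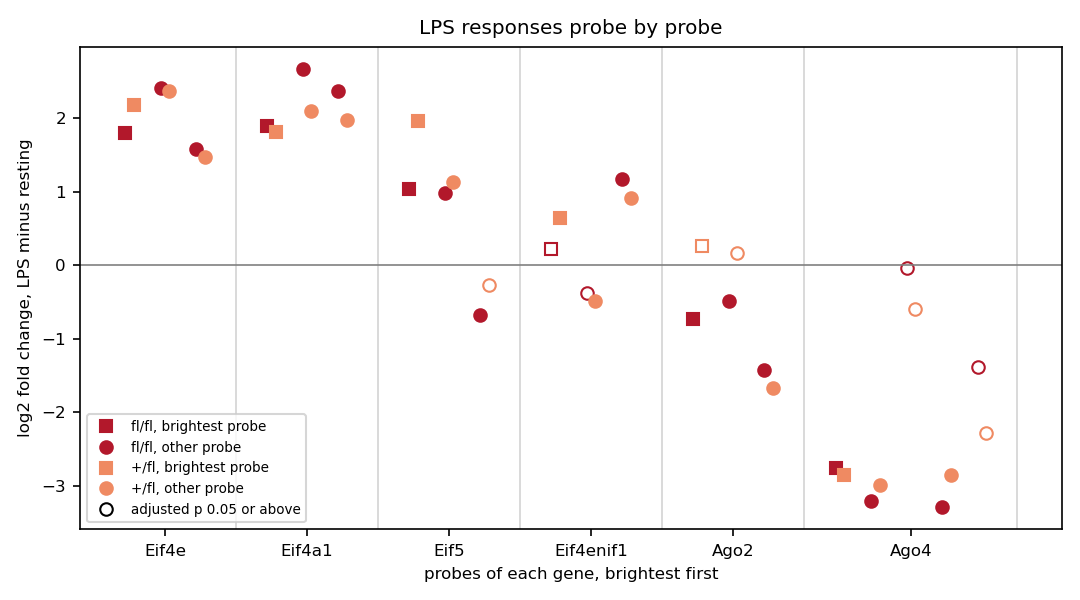
Log2 fold change after LPS at every tested probe of 6 genes, brightest first, in fl/fl and +/fl cells; squares are the brightest probes and open symbols did not pass an adjusted p of 0.05 over all probes. The Eif4e and Eif4a1 probes all lie above 1.4, while Eif5, Eif4enif1, Ago2 and Ago4 hold probes that differ from the brightest one.

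Promoter sequence was looked up in a RefSeq table on build GRCm38.p6, which holds windows of 250 bases before to 50 after each start. It has 36 of the 46 tested genes. The motif CACGTG, the canonical E-box that Myc with its partner Max can bind, reads the same on both strands, and was found in a window of 9 of the 36 genes (25%), against 8.09% of the 27025 genes in the table. Of the 9 genes, 5 rose in both genotypes, and of the 27 without it 17 did. A match describes letters and not binding. The 250 bases before the start are shown for Eif4e (the window of its 2 that holds matches, chr3:138527018-138527267, plus strand), Eif4a1 (chr11:69672424-69672673, minus strand), Eif3f (chr7:108934165-108934414, plus strand) and Eif3k (chr7:28981889-28982138, minus strand), genes that rose in both, rose in both, fell in both and rose in fl/fl cells. Capitals mark the motif, which begins 228 and 64 bases before the start of Eif4e, 189 before that of Eif4a1, 68 before that of Eif3f and 44 before that of Eif3k.
Eif4e: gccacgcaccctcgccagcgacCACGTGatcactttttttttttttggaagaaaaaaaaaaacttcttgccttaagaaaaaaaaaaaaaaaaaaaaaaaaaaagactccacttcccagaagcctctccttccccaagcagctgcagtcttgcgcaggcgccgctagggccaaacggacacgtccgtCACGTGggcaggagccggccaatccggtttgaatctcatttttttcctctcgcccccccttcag
Eif4a1: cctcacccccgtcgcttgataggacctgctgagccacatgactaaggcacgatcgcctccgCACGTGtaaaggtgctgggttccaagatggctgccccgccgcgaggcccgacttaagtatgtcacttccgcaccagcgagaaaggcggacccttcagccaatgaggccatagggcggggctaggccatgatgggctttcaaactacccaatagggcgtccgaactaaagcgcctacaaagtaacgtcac
Eif3f: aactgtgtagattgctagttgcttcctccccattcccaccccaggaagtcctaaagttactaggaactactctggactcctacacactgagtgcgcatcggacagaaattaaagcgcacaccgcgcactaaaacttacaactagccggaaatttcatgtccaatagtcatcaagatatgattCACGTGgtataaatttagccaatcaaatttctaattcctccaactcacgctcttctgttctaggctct
Eif3k: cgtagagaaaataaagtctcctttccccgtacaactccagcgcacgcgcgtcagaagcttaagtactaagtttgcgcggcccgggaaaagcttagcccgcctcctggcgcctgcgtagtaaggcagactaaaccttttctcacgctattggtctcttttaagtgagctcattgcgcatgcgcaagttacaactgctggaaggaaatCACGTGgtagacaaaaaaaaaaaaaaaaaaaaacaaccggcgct

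Genes that act with the initiation factors were read from lists chosen by function. Myc, a driver of growth genes, rose by 3.37 in fl/fl and 2.85 in +/fl cells. Of 9 other initiation helpers 5 rose and 1 fell in fl/fl cells, and 6 rose and 1 fell in +/fl cells: Denr, which aids reinitiation, rose by 1.90 and 1.90, and Larp1, which binds mRNAs of the translation machinery, by 2.0 and 2.23. Pdcd4, an inhibitor of eIF4A, fell by 1.17 and 1.17. In the mTOR and MNK list 5 of 12 rose and 2 fell in fl/fl cells, and 7 rose and 1 fell in +/fl cells, and its medians were 0.13 and 0.45. For these lists the shares over all genes are those given above, 30.2% higher and 25.3% lower for fl/fl cells and 30.7% higher and 27% lower for +/fl cells. Rptor, the mTORC1 subunit, rose by 0.92 and 0.89. Mknk2, a kinase of eIF4E, fell by 0.53 and 0.93.

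Of the 12 eIF2 kinase, phosphatase and stress genes 8 rose and 2 fell in fl/fl cells, and 6 rose and 1 fell in +/fl cells. Eif2ak3, the kinase of the unfolded protein response, fell by 1.40 and 1.02. Atf4, whose mRNA is translated when eIF2 is phosphorylated, rose by 1.35 and 1.16, and its targets Trib3 and Chac1 by 3.64 and 4.75 and by 5.09 and 5.92. Both targets were dim on the resting arrays (Trib3 -3.60 to -3.08, Chac1 -5.04 to -3.42), so the sizes of their changes are less certain. Ddit3, another target, changed by 0.08 and 0.04 and did not pass. Of 10 elongation genes 7 rose and none fell in fl/fl cells, and 6 rose and 3 fell in +/fl cells. Eef1e1 rose by 2.56 and 2.73, and Eef2, the translocation factor, changed by 0.06 in fl/fl cells and fell by 0.74 in +/fl cells.

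Between the genotypes the initiation factor genes differed little in resting cells. By limma's test 1 of 46 was higher in fl/fl than in +/fl cells (2.17%, against 4.64% of all genes) and 2 were lower (4.35%, against 4.18%), shares near or below the background. The median difference was -0.07, against 0.05 over all genes, and 11 genes had an unadjusted p under 0.05 (23.9%, against 27.7% of all genes). Values did not overlap for 7 genes higher and 12 lower in fl/fl cells, together 19 of 46, against 18.7%, 12.6% and 31.2% of all genes.
Ago2 was the gene that was higher, with the values given above. All 3 resting fl/fl arrays exceeded the resting +/fl arrays, array 1 at 3.22 the most, by 0.84 (SE 0.20, adjusted p 0.0333). Its dimmer probes differed by 0.40 and 0.16 and did not pass (limma adjusted p over all probes 0.132 and 0.645). Platelet markers differed at rest as well, with a summed signal of 1.75 to 7.14 in resting fl/fl and 0.756 to 1.66 in resting +/fl cells. Of their 5 genes 1 was called higher. Their median log2 level was 0.17 on fl/fl array 1, against -1.79 and -2.15 on the other fl/fl arrays. After LPS the median change of these platelet genes was -4.3 in fl/fl and -3.7 in +/fl cells, where Ago2 changed by -0.72 and 0.26. The erythroid sums were 7.7 to 100 in resting fl/fl and 34.7 to 75.9 in resting +/fl cells. Their part in the Ago2 difference was not tested. Eif3k, a small eIF3 subunit, had 2.29, 2.66 and 2.60 in resting fl/fl cells, against 3.54, 3.38 and 2.94 in resting +/fl cells. The fl/fl arrays were all lower, a log2 difference of -0.77 (SE 0.16, adjusted p 0.0224). Eif2a had 0.74, 1.11 and 0.72 in resting fl/fl cells, against 1.59, 1.19 and 1.41 in resting +/fl cells. Here too the fl/fl arrays were all lower, a log2 difference of -0.54 (SE 0.14, adjusted p 0.0478), but its other probe went the other way (0.44, adjusted p over all probes 0.0562). Eif4a1 was not called from its brightest probe (-0.20, adjusted p 0.21), while a dimmer one read lower in fl/fl cells (-0.88, adjusted p over all probes 0.0383). The same held for Eif5a (-0.36 at the brightest probe, and -0.70 at the other, adjusted p over all probes 0.0474). Myc was lower in resting fl/fl cells as well (-0.89, adjusted p 0.0169).

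Each of these 3 calls was lost on leaving out some single arrays. Ago2 missed the threshold without any 1 of the resting +/fl arrays (limma adjusted p 0.055 to 0.0834). It also missed it without LPS fl/fl array 1, LPS +/fl array 1 or LPS +/fl array 3, which enter only the shared estimate of the spread. Eif3k missed it without resting fl/fl array 1 (0.0775) or resting +/fl array 1 (0.0675), and Eif2a in 10 of the 12 cases (0.0571 to 0.148). Without resting +/fl arrays 1 and 3, which had high myeloid signal, 1 array is left in that group and is assumed to vary like the others. Ago2 then differed by 0.94, Eif3k by -0.87 and Eif2a by -0.33. The part of myeloid cells in these differences was not tested. Within slides the median of the 46 genes was 0.002, -0.065 and 0.004, and all 3 genes kept their sign on each.

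After LPS most initiation factor genes read slightly lower in fl/fl than in +/fl cells, though nearly all missed the threshold. Marker sums differed as well: B cell genes summed to 182 to 223 in LPS fl/fl and 247 to 256 in LPS +/fl cells, T cell genes to 12.7 to 15.6 and 8.79 to 10.6, and NK genes to 4.53 to 8.39 and 2.47 to 3.18, none overlapping. Their part in the difference was not tested. Only Eif2b1 passed, 1 of 46 lower (2.17%, against 0.758% of all genes), and none was higher (against 0.857%). The difference was below 0 for 39 of 46 genes (84.8%, against 46% of all genes), with a median of -0.23 against 0.04 over all genes, and 22 genes had an unadjusted p under 0.05 (47.8%, against 21.5% of all genes), of which 20 were lower (43.5%, against 9.98%). Values did not overlap for 28 genes lower and 2 higher, together 30 of 46, against 17.9%, 15.3% and 33.2% of all genes.
Eif2b1 had 3.36, 3.52 and 3.26 in LPS fl/fl cells, against 4.0, 4.01 and 3.85 in LPS +/fl cells. The fl/fl arrays were all lower, a log2 difference of -0.58 (SE 0.10, adjusted p 0.034), while in resting cells they differed by -0.01. It missed the threshold in 14 of 24 alternatives, the slide as a block among them (-0.66, adjusted p 0.101).

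At their brightest probes all 12 eIF3 genes were below 0 in this comparison, by -0.37 to -0.06. So were the 3 eIF2 subunit genes and Eif2a, by -0.49 to -0.22, and 4 of 5 eIF2B genes. Of the 34 genes with several probes, 21 had the same sign at all of them. Among the groups named here, dimmer probes read above 0 for Eif3a (0.17), Eif3d (0.15), Eif2s2 (0.125), Eif2a (0.22) and Eif2b4 (0.075), none past the threshold. Eif4e differed by -0.37 (95% interval -0.60 to -0.14), Eif5 by -0.53 (-0.93 to -0.12), Eif2s2 by -0.49 (-0.79 to -0.20) and Eif4a1 by -0.11 (-0.33 to 0.10), none past the threshold. Per array, the median of the 46 genes relative to their 12-array means was 0.34, 0.33 and 0.35 in LPS fl/fl and 0.53, 0.65 and 0.55 in LPS +/fl cells, with no overlap. Slide moved with genotype here: 2 LPS fl/fl arrays lay on slide 3 and 2 LPS +/fl arrays on slide 1. On slide 2, the only one with both, the median was -0.20. The size changed with scaling and the sign with background correction: the median was -0.11 with quantile normalization (all genes -0.04) and 0.18 with normexp (all genes -0.12), against -0.21 with normexp after repair of bright local backgrounds.

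**Figure D5:**
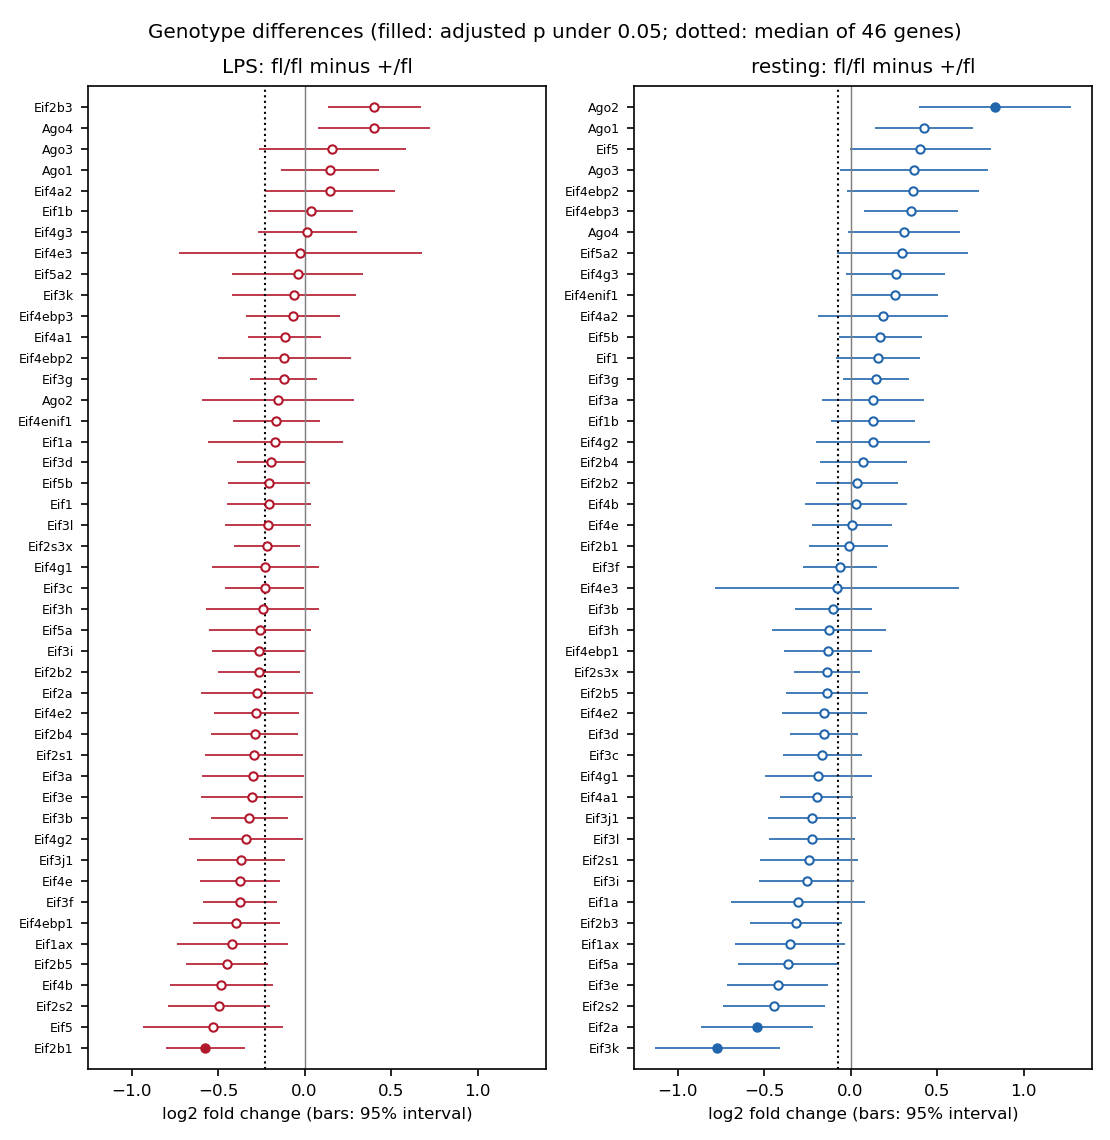
Log2 difference between fl/fl and +/fl cells for each of the 46 genes with 95% intervals, after LPS (left) and in resting cells (right); filled points passed an adjusted p of 0.05 and the dotted line is the median. After LPS 39 of 46 genes lie below 0 around a median of -0.23, and in resting cells the genes lie on both sides of a median of -0.07.

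The difference between the LPS responses, fl/fl minus +/fl, was tested as an interaction. By limma's test 0 of 46 genes passed (0.163% of all genes did), and 15 had an unadjusted p under 0.05 (32.6%, against 20.3% of all genes), of which 13 were below 0 (28.3%, against 11.5%). The median was -0.18, against 0.01 over all genes. The smallest adjusted p was that of the dim Eif2b3, with a difference of 0.72 (SE 0.17, adjusted p 0.0901). Next were Eif2b1 at -0.56 (SE 0.14, adjusted p 0.104), Eif5 at -0.93 (SE 0.26, adjusted p 0.115) and Ago2 at -0.99 (SE 0.28, adjusted p 0.12). For Eif4e the difference was -0.38 (95% interval -0.71 to -0.05), for Eif4a1 0.08 (-0.22 to 0.38) and for Eif2s1 -0.05 (-0.46 to 0.35).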

How the data were processed

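RNA of splenic B cells was hybridised to 12 Agilent 1-colour arrays (Cy3), 1 sample an array, on 3 slides of 4. Per the file headers, intensity was read with Agilent's Feature Extraction software, which subtracted local background and detrended each array. The submitters' processing notes name version 9.1, and the headers a later one. These deposited intensities are not scaled between arrays. The authors' deposited value table holds processed intensity on a linear scale; its columns share a common distribution, no source used here states how it was made, and it served as an alternative.

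From the processed signal, log2 values minus the 75th percentile of each array were computed, after leaving out control spots and outlier flags and averaging spots of a probe. A probe was kept if its signal stood well above background on any 3 or more of the 12 arrays, and a gene was read from its brightest probe. Accessions were matched to current gene names through a RefSeq table. The 4 groups were fitted together in limma 3.58.1 (R 4.3.3), and p-values were adjusted over 17157 genes by Benjamini-Hochberg with a threshold of 0.05; promoters, ranges and plots used Python 3.11.15, pandas 2.3.3 and matplotlib 3.10.9. On simulated data for the fl/fl LPS response (17157 genes), 59 of 100 genes changed by log2 1 and 91 of 100 changed by log2 2 were recovered, with 6 false calls. In the real response 5183 genes passed as higher and 4349 as lower, a far larger share. The Benjamini-Hochberg cutoff depends on that share, so the simulated recovery does not carry over to the real response. The number of arrays limits the precision.

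Genes, lists and alternatives were chosen with earlier results of these data known. Values per array are given for up to 6 largest rises and 5 largest falls among the genes past the threshold in each LPS response, for calls between genotypes, and for a set of central factors; others are given by change or count. Sample names of LPS +/fl array 1 and resting +/fl array 3 share a number and may share an animal, so both were left out in 1 alternative. Other alternatives changed background correction, scaling, filter, probes, blocks and arrays.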

Additional observations from a re-analysis of the deposited data

How the results depend on the processing

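With plain normexp, 16 of the 46 genes rose and 1 fell in fl/fl cells after LPS, against 1382 and 955 of all 17157 genes. In +/fl cells 9 rose and 0 fell, against 773 and 655 of all genes. Between genotypes 0 of all genes were called, at rest or after LPS. Medians of the 46 genes were 1.196, 0.968, -0.003 (resting), 0.184 (LPS) and 0.149 (interaction). Plain normexp turned Eif2b3 to -0.531 and Eif4ebp3 to 0.044 in fl/fl cells. With bright local backgrounds set to the array median, 4 genes were lower at rest and 2 after LPS (761 and 238 of all genes). The interaction median was -0.129. Quantile scaling gave LPS medians of 0.777 and 0.747, and LPS genotype and interaction medians of -0.109 and -0.094. It left 4 genes lower at rest and 0 after LPS (795 and 81 of all genes). The deposited table gave 0.782, 0.765, -0.113 and -0.086, with 4 and 0 genes lower (783 and 82 of all genes). All-gene medians in fl/fl cells after LPS were -0.424 with normexp, -0.218 with repair and -0.111 with quantile scaling, against 0.075. Without a filter the calls were 0 higher and 0 lower at rest and 0 lower after LPS (168, 235 and 17 of 27671 genes). With one on all 12 arrays they were 2 higher, 4 lower and 2 lower (1190, 910 and 250 of 13328 genes). The slide as a block left 1 lower at rest and 0 after LPS (575 and 3 of all genes), and the replicate block 0 and 0 (353 and 19). Only the arrays compared gave 0 higher and 0 lower at rest and 0 lower after LPS (43, 88 and 8 of all genes). The mean over probes gave 1 lower at rest (650 of all genes) and medians of -0.157 (LPS genotype) and -0.091 (interaction). Without the arrays that share a sample number 0 genes were higher and 1 lower at rest (109 and 145 of all genes). After LPS 0 were lower (6 of all genes). Without resting +/fl arrays 1 and 3, chosen after seeing the data, the resting median was -0.087. Causes were not tested.

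Leaving out each array in turn gave 27 to 29 genes higher and 3 to 5 lower in fl/fl cells (medians 0.903 to 0.922), and 31 to 32 higher and 3 lower in +/fl cells (0.983 to 1.082). The 3 came without resting fl/fl array 1. Between genotypes it gave 0 to 1 higher and 0 to 3 lower at rest (-0.088 to -0.013), 0 higher and 0 to 1 lower after LPS (-0.258 to -0.201), and no interaction call (-0.237 to -0.141). In every one of 23 alternatives other than plain normexp, 29 of 33 LPS calls in fl/fl cells were kept (not Eif2b3, Eif3k, Eif4e3 and Eif4ebp3) and 30 of 34 in +/fl cells (not Eif1, Eif2b2, Eif2b3 and Eif4g3). Deviations of samples of 1 replicate number correlated weakly (-0.0796 to 0.126). With 3 arrays a group this cannot tell whether the numbers pair the samples. Dim genes such as Eif2b3 are limited by signal over background.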

Other observations

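Initiation factor genes that the array lists under other names, and which the naming rule therefore missed, moved the same way. Of 6 such genes 5 rose in each genotype: Eif6, which keeps ribosomal subunits apart, by 1.46 in fl/fl and 1.79 in +/fl cells, Eif4a3 of the exon junction complex by 1.28 and 1.33, Eif1ad by 1.21 and 1.38, the eIF4A helper Eif4h by 0.90 and 1.15, and the eIF3 subunit Eif3m by 0.75 and 0.47. Eif2d, which delivers tRNA without eIF2, changed by -0.04 and 0.15 and did not pass.

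Of 8 termination, recycling and poly(A)-binding genes 5 rose and 1 fell in fl/fl cells, and 6 rose and 1 fell in +/fl cells (limma, adjusted p under 0.05). The release factors Etf1 and Gspt1 rose by 1.92 and 2.11 and by 1.40 and 2.08, and the recycling factor Abce1 by 1.68 and 1.81. Paip1, which stimulates translation through the poly(A)-binding protein, rose by 1.37 and 1.69, while Paip2, which inhibits it, fell by 0.63 and 0.83. Pabpc1, that protein's main gene, changed by 0.33 and 0.02 and passed in neither, and its relative Pabpc4 rose by 1.46 and 1.46.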
